A study of Mus musculus with 16 samples.

Results

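The plasminogen activators, their receptor and their serpin inhibitors were followed in the mouse hippocampus after status epilepticus (SE), a prolonged seizure. The set was given as 6 genes by name: Plat, Plau, Plaur, Serpinb2, Serpine2 and Serpini1. Of these, 5 were measured among the 22180 genes of the arrays, each by 1 probe set, and Serpine2 was not analysed here because no probe set was paired with its symbol. A further probe set that carries the symbols of both Serpinb2 and Serpinb10 was not used. Serpinb2 was chosen by measured values, its spread between SE arrays, so its values after SE are given as a description with no test. The other members were listed by family with earlier results of these data known.

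There were 16 arrays, 1 per mouse, in 4 groups of 4: Astro-D2KO mice after SE, Astro-D2KO mice given saline, control mice after SE and control mice given saline. All were C57BL/6 mice aged 8 to 10 weeks, and all carried a glial cre whose promoter the labels do not name. Astro-D2KO mice also carried floxed Dio2, the gene of the type 2 deiodinase that makes the active thyroid hormone T3, and control mice were wild type for Dio2. Lithium chloride (10 mEq/kg) was injected into every mouse 18 h ahead of the second injection, which was pilocarpine (65 mg/kg) in the SE groups and saline in the others. Effects of pilocarpine and of the seizures cannot be told apart, and in whole tissue fewer cells of a type and less RNA per cell cannot be told apart either. The sources used here do not give the time from pilocarpine to dissection.

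Plasminogen is a secreted zymogen that is cut to the broad protease plasmin by tissue-type plasminogen activator (tPA, from Plat) or urokinase (uPA, from Plau). uPA works at the cell surface, held by its receptor uPAR (from Plaur). Serpins are suicide inhibitors that trap a protease through an exposed loop: neuroserpin (from Serpini1) acts mainly on tPA in the nervous system, protease nexin 1 (from Serpine2) acts on thrombin and on both activators, and PAI-2 (from Serpinb2) acts on uPA and tPA but stays largely inside cells. In the hippocampus tPA is made by neurons and glia and has been studied in synaptic plasticity and in seizures.

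Dio2, the targeted gene, was checked first, and 1 SE array went against its label. Dio2 stood at 8.91, 7.03, 7.17 and 7.12 (log2, replicates 1 to 4) in Astro-D2KO mice after SE, against 9.51, 9.11, 9.24 and 7.99 in control mice after SE. Under saline it lay between 6.52 and 7.09 in Astro-D2KO mice and between 7.87 and 8.28 in control mice. Among Astro-D2KO mice after SE, replicate 1 thus held the highest Dio2 value, 8.91, and among control mice after SE, replicate 4 held the lowest, 7.99. The array labelled Astro-D2KO SE replicate 1 lay above the control saline arrays, against its label. Control SE replicate 4 lay within the range of the control saline arrays and above the other Astro-D2KO arrays. It also lay well below the other control SE arrays, 9.11 to 9.51, so its Dio2 level does not settle its label either way. Which part of Dio2 the probe set reads, and which part is floxed, is not known here. Both arrays were kept in their groups, and several results that rest on them are also given without them. Hippocampal neuron markers, 5 of 5 measured, had a summed level between 10.94 and 11.61 (log2 of the summed linear values) over the 16 arrays, and after SE 1 of them fell in Astro-D2KO mice and 2 in control mice. Choroid plexus markers, 5 of 5 measured, spanned 8.95 to 13.30 on the same scale, and their lowest value was that of Astro-D2KO SE replicate 1.

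Promoter sequence was available for 4 of the 6 genes from RefSeq (GRCm38.p6), taken as the 250 bases before the annotated start. The windows of Plaur and Serpinb2 are shown because in both genes every SE array lay above every saline array of its genotype. Capitals in the Plaur window mark the AP-1 motif TGACTCA, and capitals in the Serpinb2 window mark the TATA box letters TATAAA; both strands were searched, also for the CRE core TGACGT, and no matches overlapped.
Plaur, chr7:24462233-24462482, plus strand: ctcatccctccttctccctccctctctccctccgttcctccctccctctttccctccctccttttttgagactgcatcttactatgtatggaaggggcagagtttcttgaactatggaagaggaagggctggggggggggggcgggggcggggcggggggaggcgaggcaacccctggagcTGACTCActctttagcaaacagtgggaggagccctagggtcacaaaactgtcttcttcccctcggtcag
Serpinb2, chr1:107511173-107511422, plus strand: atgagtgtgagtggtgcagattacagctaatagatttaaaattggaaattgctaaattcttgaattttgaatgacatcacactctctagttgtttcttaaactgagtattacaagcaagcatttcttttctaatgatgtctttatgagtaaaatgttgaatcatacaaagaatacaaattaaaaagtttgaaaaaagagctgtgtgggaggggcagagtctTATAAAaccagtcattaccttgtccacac
The AP-1 letters of Plaur lay 69 to 63 bases before its start, and 4.46% of the 32851 promoter windows of this length held that motif. The TATA letters of Serpinb2 lay 29 to 24 bases before its first start, a motif held by 12.4% of windows, and 6.47% of windows held the CRE core. The windows of Serpini1 and Serpine2 held none of the 3 motifs. A match is a description of letters and says nothing of binding.

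**Figure D1:**
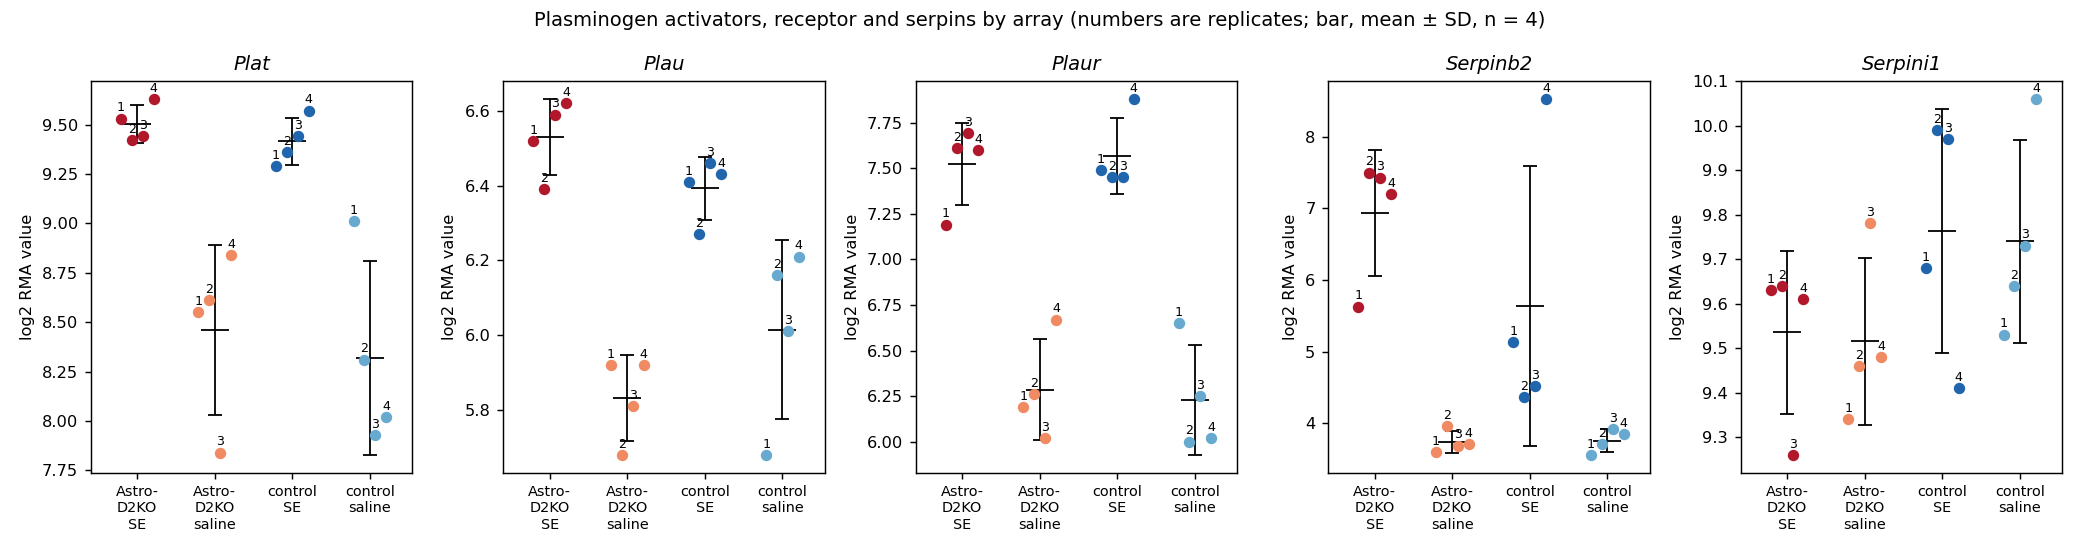
Level of each measured gene in every array (log2 RMA value), with 1 point per array numbered by replicate and a bar for the mean ± SD of 4 arrays. Plat, Plau, Plaur and Serpinb2 lay higher in all SE arrays than in all saline arrays of the same genotype, and Serpini1 overlapped throughout.

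Plat (probe set 17499962), encoding tPA, was about 2 times as high after SE as under saline in both genotypes. In Astro-D2KO mice it stood at 9.53, 9.42, 9.44 and 9.63 (log2, replicates 1 to 4) after SE, against 8.55, 8.61, 7.84 and 8.84 under saline. In control mice it stood at 9.29, 9.36, 9.44 and 9.57 after SE, against 9.01, 8.31, 7.93 and 8.02 under saline. In neither genotype did the SE arrays overlap the saline arrays; the nearest arrays were 0.58 apart in Astro-D2KO mice and 0.28 apart in control mice. Plat rose by 1.05 ± 0.21 (log2, standard error) in Astro-D2KO mice, 2.06-fold, with a limma adjusted p of 0.00155. The rise in control mice was 1.10 ± 0.21, 2.14-fold, with a limma adjusted p of 0.000916.

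Plat was spread more widely among the saline arrays than among the SE arrays, through 1 saline array in each genotype. The SD was 0.10 in Astro-D2KO mice after SE and 0.43 under saline, and 0.12 in control mice after SE and 0.49 under saline (n = 4 each). Over all genes the median SD of a group was between 0.13 and 0.15, and by its SD in the saline groups Plat ranked 356 (Astro-D2KO) and 220 (control) among 22180 genes, counted down the list. The saline SDs rested on 1 array each: without Astro-D2KO replicate 3 the first was 0.15, and without control replicate 1 the second was 0.20 (n = 3 each). The highest saline value, 9.01 in control replicate 1, was still below the lowest SE value, 9.29, so the narrow SE groups lay at the top of the whole range. In each genotype the saline array highest in Plat was also the highest in Plaur, replicate 4 in Astro-D2KO mice and replicate 1 in control mice. Plau did not share this in control mice, where replicate 1 was the lowest saline array, at 5.68. In Astro-D2KO mice saline replicates 1 and 4 both held 5.92 for Plau.

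Plau (probe set 17297537), encoding uPA, also rose, by less than Plat and Plaur. In Astro-D2KO mice it stood at 6.52, 6.39, 6.59 and 6.62 after SE, against 5.92, 5.68, 5.81 and 5.92 under saline. The control values were 6.41, 6.27, 6.46 and 6.43 after SE, against 5.68, 6.16, 6.01 and 6.21 under saline. The groups did not overlap in either genotype, but in control mice the nearest arrays were only 0.07 apart. The rise was 0.70 ± 0.10 in Astro-D2KO mice (1.62-fold, limma adjusted p = 0.000125) and 0.38 ± 0.10 in control mice (1.30-fold, limma adjusted p = 0.0135). The difference between these responses, 0.32 ± 0.15, had an unadjusted limma p of 0.0402 and an adjusted p of 0.998, so a dependence on genotype was not shown for Plau.

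Plaur (probe set 17474974), encoding the uPA receptor that anchors the protease to the membrane, had the largest rise of the tested members. In Astro-D2KO mice its values were 7.19, 7.61, 7.69 and 7.60 after SE, against 6.19, 6.26, 6.02 and 6.67 under saline. In control mice they were 7.49, 7.45, 7.45 and 7.88 after SE, against 6.65, 6.00, 6.25 and 6.02 under saline. No SE array overlapped a saline array of its genotype, with gaps of 0.51 in Astro-D2KO mice and 0.80 in control mice. Plaur rose by 1.24 ± 0.16 in Astro-D2KO mice (2.36-fold, limma adjusted p = 3.89e-05) and by 1.34 ± 0.16 in control mice (2.53-fold, limma adjusted p = 1.53e-05). By the size of this rise Plaur ranked 179 in Astro-D2KO mice and 177 in control mice among 22180 genes. Without the arrays labelled Astro-D2KO SE replicate 1 and control SE replicate 4 the SE levels of Plaur averaged 7.64 ± 0.05 in Astro-D2KO mice and 7.46 ± 0.02 in control mice (SD, n = 3 each).

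Serpini1 (probe set 17398323), encoding neuroserpin, the nervous system inhibitor of tPA, did not pass in either genotype. In Astro-D2KO mice it stood at 9.63, 9.64, 9.26 and 9.61 after SE, against 9.34, 9.46, 9.78 and 9.48 under saline. The control values were 9.68, 9.99, 9.97 and 9.41 after SE, against 9.53, 9.64, 9.73 and 10.06 under saline. All groups overlapped. The difference was 0.02 ± 0.14 in both genotypes (limma adjusted p of 0.959 in Astro-D2KO mice and 0.944 in control mice), and its 95% interval ran from -0.28 to 0.32 in each. A change of 1 log2 unit in either direction, such as that of Plat, lay outside these intervals.

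Thus 3 of the 4 tested members rose and 0 fell in each genotype. Over all genes the same test called 20.1% in Astro-D2KO mice, with 7.49% higher, and 22.1% in control mice, with 8.42% higher. Counted by arrays that do not overlap, the same 3 of the 4 tested members were higher after SE in each genotype, where the share of all genes was 9.54% in Astro-D2KO mice and 8.46% in control mice. The members were chosen with earlier results known, so these shares are given for scale. The median change of all genes was -0.01 in Astro-D2KO mice and -0.02 in control mice.

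**Figure D2:**
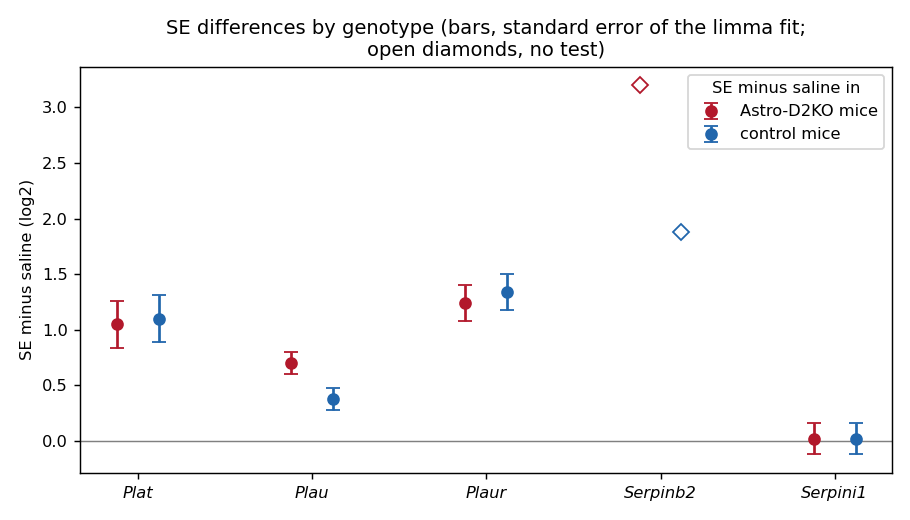
SE minus saline for each measured gene (log2), with Astro-D2KO mice left of control mice; bars are standard errors of the limma fit and open diamonds have no test. Plat, Plau and Plaur lie above 0 in both genotypes, and Serpini1 lies at 0.02 in both.

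Serpinb2 (probe set 17216458), encoding PAI-2, was low and even under saline and spread over a wide range after SE. Under saline its values were 3.60, 3.96, 3.69 and 3.71 in Astro-D2KO mice and 3.56, 3.71, 3.92 and 3.85 in control mice. After SE they were 5.63, 7.50, 7.43 and 7.20 in Astro-D2KO mice and 5.13, 4.37, 4.52 and 8.53 in control mice. Every SE array lay above every saline array. The highest of the 16 arrays was the one labelled control SE replicate 4, and the lowest Astro-D2KO SE array was the one labelled replicate 1. The SE minus saline difference was 3.20 (log2) in Astro-D2KO mice and 1.88 in control mice, given without a test. The saline values lay well below the array medians and were not shown to be above background, so these differences may understate the change and no fold is given. Serpinb2 was chosen for its spread after SE, so the ranks of its SE SDs restate that choice and are no finding. The SD was 1.95 for the control SE arrays, the largest of all 22180 genes. For the Astro-D2KO SE arrays it was 0.88, at rank 23.

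The SE arrays with the highest Dio2 among Astro-D2KO mice and the lowest Dio2 among control mice also held the lowest and the highest Serpinb2 of those groups. With all arrays the SE level of Serpinb2 averaged 6.94 ± 0.88 in Astro-D2KO mice and 5.64 ± 1.95 in control mice (SD, n = 4 each), and the groups overlapped. Without Astro-D2KO SE replicate 1 and control SE replicate 4 it averaged 7.38 ± 0.16 in Astro-D2KO mice, from 7.20 to 7.50, and 4.68 ± 0.40 in control mice, from 4.37 to 5.13 (SD, n = 3 each). Those reduced groups did not overlap. The arrays left out held the lowest Astro-D2KO and the highest control SE value of Serpinb2, so leaving them out made this separation. The SE minus saline difference was then 3.64 in Astro-D2KO mice and 0.92 in control mice. No test is given, since the spread that these arrays make is what Serpinb2 was chosen for. Under saline, which the choice did not use, the genotypes differed in Serpinb2 by -0.02 (95% interval from -1.36 to 1.32, limma adjusted p = 0.999). That interval is wide because the fit shares its spread with the SE arrays.

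**Figure D3:**
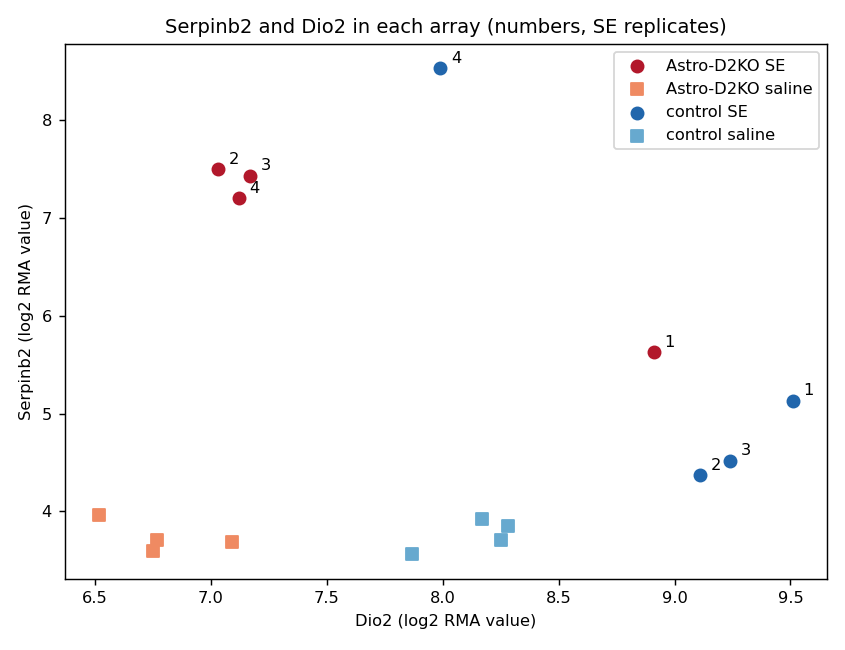
Serpinb2 against Dio2 in each of the 16 arrays (both log2 RMA values), with SE arrays numbered by replicate. Control SE replicate 4 lies at 8.53 for Serpinb2 and 7.99 for Dio2, and Astro-D2KO SE replicate 1 at 5.63 and 8.91.

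Markers of cells that can hold Serpinb2 or Plaur were set beside these values. Monocyte and macrophage markers, 6 of 6 measured, had a summed level of 8.37 to 8.53 after SE and 8.09 to 8.42 under saline in Astro-D2KO mice, and of 8.32 to 8.55 after SE and 8.31 to 8.40 under saline in control mice. None of the 6 passed in either genotype. Neutrophil markers, 6 of 6 measured, spanned 7.61 to 7.73 after SE and 7.36 to 7.58 under saline in Astro-D2KO mice, and 7.49 to 7.66 after SE and 7.27 to 7.56 under saline in control mice, with 1 of the 6 higher in each genotype. Control SE replicate 4 was the lowest control SE array for neutrophil markers, at 7.49, and the highest for monocyte markers, at 8.55. Microglial markers, 5 of 5 measured, were lower after SE, at 9.42 to 9.72 against 9.97 to 10.17 under saline in Astro-D2KO mice and at 9.41 to 9.77 against 9.89 to 10.12 in control mice, and 2 of the 5 fell in each genotype.

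Markers of astrocytes, oligodendrocytes, endothelium, and pericytes and smooth muscle were read in the same way. Astrocyte markers, 5 of 5 measured with 0 passing, spanned 12.13 to 12.49 after SE and 11.83 to 12.30 under saline in Astro-D2KO mice, and 11.97 to 12.43 after SE and 11.85 to 12.18 under saline in control mice. Astro-D2KO SE replicate 1 was the lowest of its group, at 12.13, and control SE replicate 4 the highest of its group, at 12.43. Oligodendrocyte markers, 4 of 5 measured, spanned 10.35 to 10.86 after SE and 10.87 to 11.05 under saline in Astro-D2KO mice, where 2 fell, and 10.72 to 11.24 after SE and 10.93 to 11.16 under saline in control mice, where none passed. Endothelial markers, 5 of 5 measured, were higher after SE without overlap, at 10.24 to 10.47 against 9.56 to 9.78 under saline in Astro-D2KO mice and at 10.27 to 10.52 against 9.42 to 9.97 in control mice. Of these markers 3 rose in each genotype, and Plat is a gene that endothelium also expresses. Pericyte and smooth muscle markers, 5 of 5 measured, did not rise in sum. They spanned 10.26 to 10.43 after SE and 10.34 to 10.53 under saline in Astro-D2KO mice, where 0 passed. In control mice they were lower, at 10.21 to 10.43 after SE against 10.48 to 10.66 under saline, and 1 rose and 1 fell. The part of these cell types in the members' results was not tested.

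Genotype made no difference that passed for the tested members, whether under saline or after SE. Over all genes limma called 0% in either comparison and 0% in the comparison of the SE responses. At an unadjusted p under 0.05 it called 1358 genes after SE, 885 under saline and 1031 for the responses. Counts of about this size are reached at that threshold among 22180 genes with no difference in any gene. Dio2, the targeted gene, did not pass either. Astro-D2KO minus control was -1.41 for Dio2 after SE (limma adjusted p = 0.532) and -1.36 under saline (limma adjusted p = 0.999). Its saline arrays did not overlap between genotypes, so the absence of calls does not show that the genotypes were alike. After SE, Astro-D2KO minus control was 0.09 for Plat (95% interval from -0.34 to 0.53), 0.14 for Plau (from -0.08 to 0.36), -0.04 for Plaur (from -0.38 to 0.30) and -0.23 for Serpini1 (from -0.53 to 0.07), with limma adjusted p from 0.860 to 0.977. Under saline the differences were 0.14, -0.19, 0.06 and -0.22 in the same order of genes, all with an adjusted p of 0.999. These intervals leave room for modest differences in either direction. Those of Plat and Plaur leave out a difference as large as their SE response.

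In the tested members that rose, both SE groups lay above both saline groups. For Plat and Plau the order of the means was Astro-D2KO SE, then control SE, and for Plaur control SE, then Astro-D2KO SE. Astro-D2KO and control arrays overlapped in each of these genes, after SE and under saline, whereas over all genes 2.94% did not overlap after SE and 2.61% did not under saline. For Serpini1 the control means, 9.76 after SE and 9.74 under saline, lay above the Astro-D2KO means, 9.53 and 9.52, within the spread of the arrays.

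Serpinb2 was the only measured member whose 16 arrays spanned at least 2 log2 units (4.97), and the genes of most similar pattern were sought for it. Likeness was the root mean square difference over the 16 arrays after each gene's own mean was subtracted. The 5 nearest genes were Tll1 (0.79), encoding a tolloid-like metalloprotease, Sprr1a (0.84), a small proline-rich protein gene induced in injured neurons, Fndc9 (0.87), Tnc (0.92), encoding the matrix glycoprotein tenascin C, and AU023762 (0.94). Tll1 stood at 8.63, 9.49, 9.27 and 9.69 in Astro-D2KO mice after SE and at 8.63, 7.62, 8.38 and 9.59 in control mice after SE. Tnc stood at 6.95, 8.13, 8.23 and 7.90 in Astro-D2KO mice after SE and at 7.04, 6.67, 6.83 and 8.79 in control mice after SE. In all 5 genes control SE replicate 4 was the highest control SE array. In Tll1, Sprr1a and Tnc, Astro-D2KO SE replicate 1 was the lowest Astro-D2KO SE array, and in Fndc9 and AU023762 it was not. The genes were picked for likeness to Serpinb2, so this sharing is no independent evidence.

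**Figure D4:**
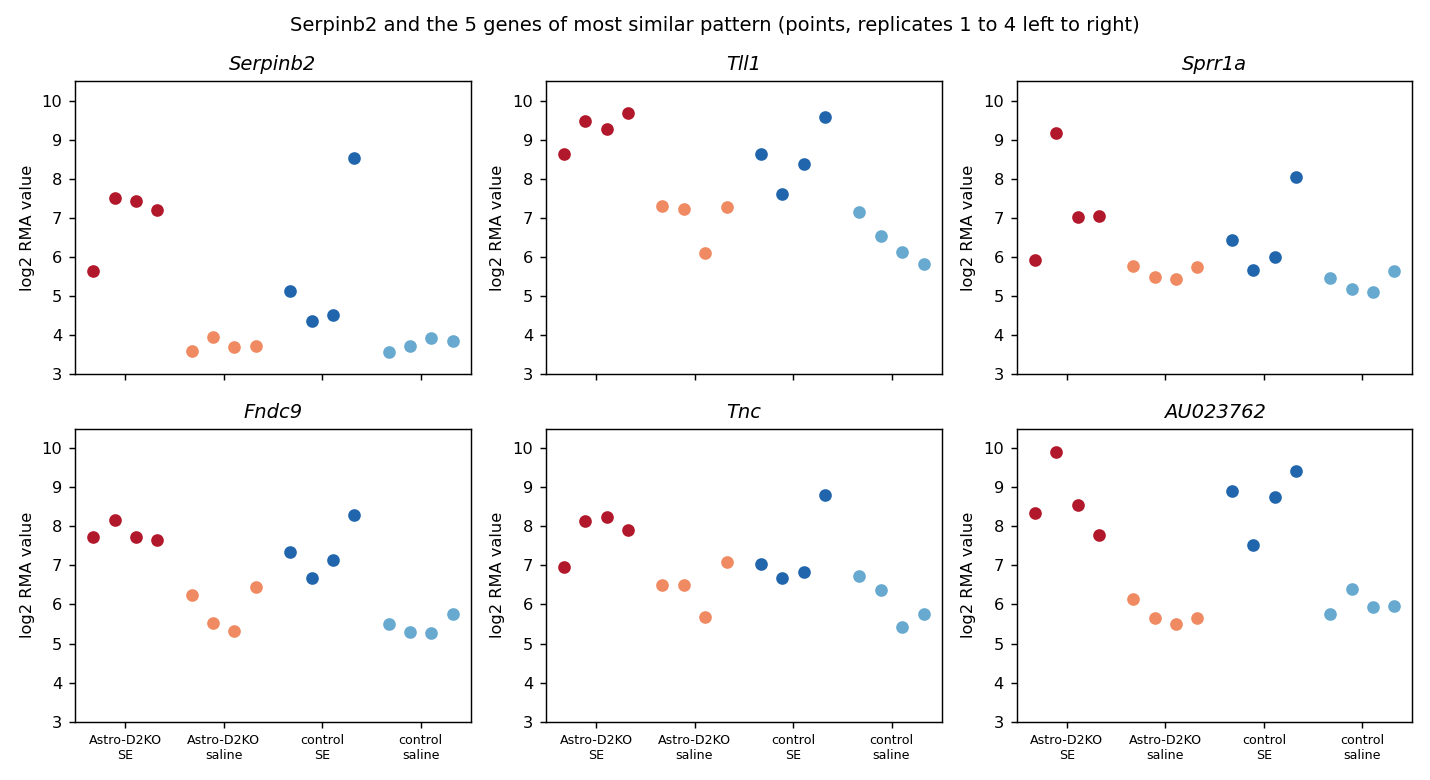
Serpinb2 and the 5 genes of most similar pattern, with 1 point per array (log2 RMA value) and replicates 1 to 4 from left to right in each group. Control SE replicate 4 is the highest control SE point in every panel.

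The rest of the plasminogen system was read from 7 lists of 55 genes, of which 50 were measured and 5 were not analysed here. In Astro-D2KO mice 11 of the 50 rose, 6 fell and 33 did not pass after SE, with a median of 0.10. In control mice 13 rose, 5 fell and 32 did not pass, with a median of 0.09. Over all genes 7.49% rose and 12.6% fell in Astro-D2KO mice, and 8.42% rose and 13.7% fell in control mice. These shares are also the scale for the counts of single lists below and of marker sets above. Those counts rest on few genes each, and whether they differ from the shares was not tested. None of the 50 passed between genotypes. Without Astro-D2KO SE replicate 1 and control SE replicate 4, the number that rose in control mice was 8, and without Astro-D2KO saline replicate 3, the number that fell in Astro-D2KO mice was 3.

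**Figure D5:**
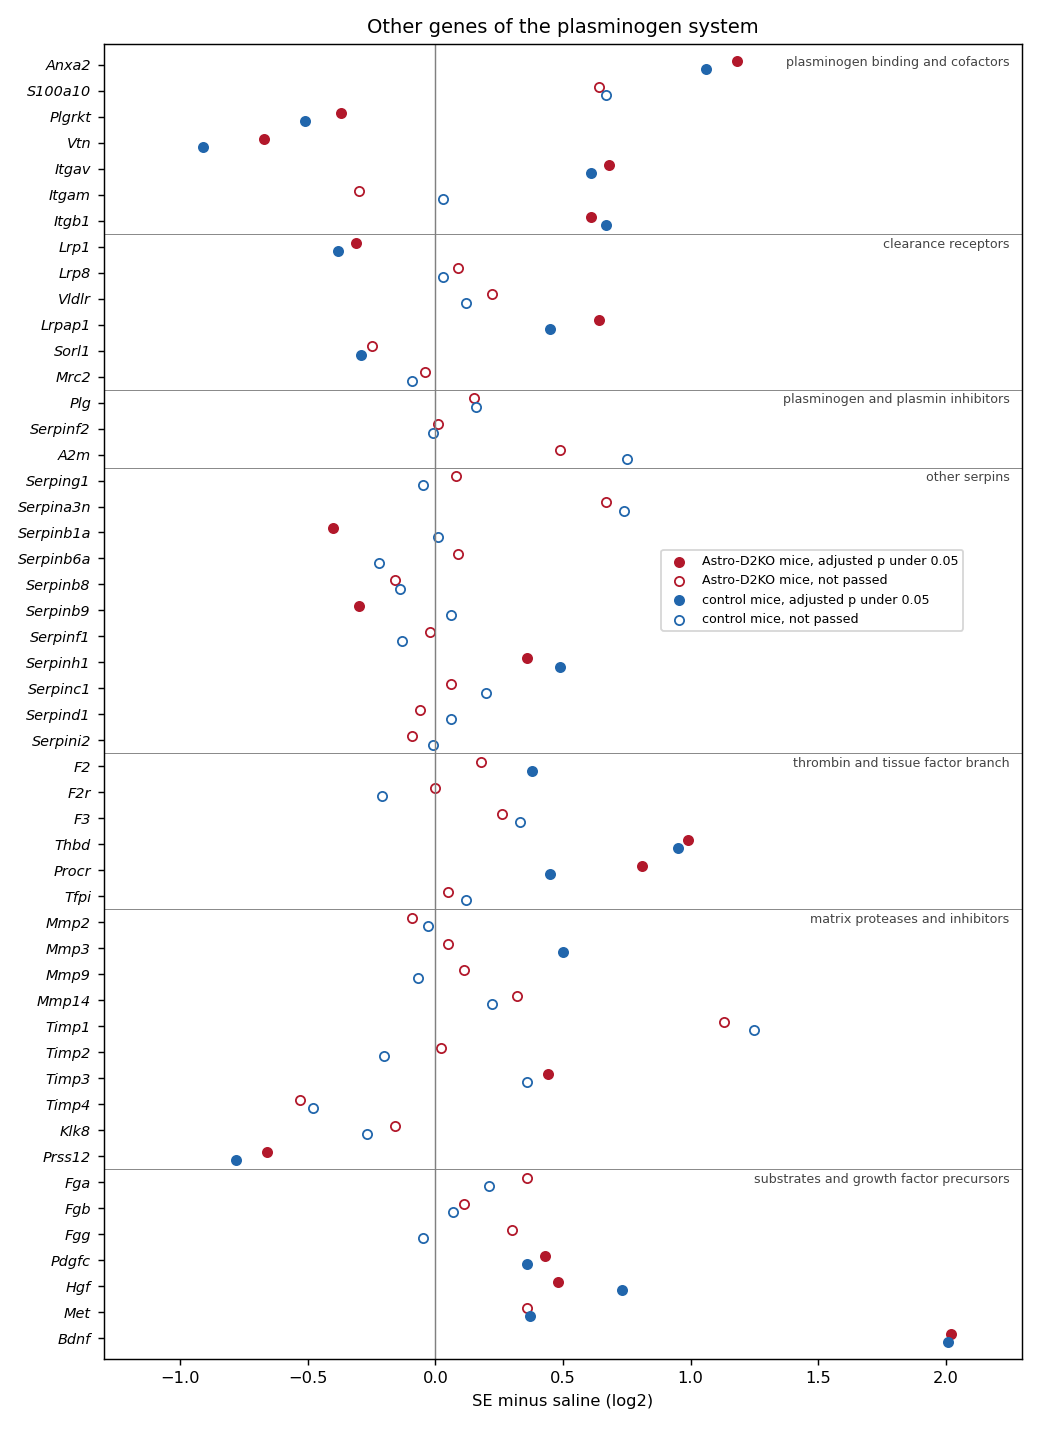
SE minus saline (log2) for the 50 measured genes of the lists, with Astro-D2KO mice (red) above control mice (blue) in each row; filled points had an adjusted p under 0.05. Bdnf lies farthest to the right, at 2.02 in Astro-D2KO mice and 2.01 in control mice, and Vtn farthest to the left, at -0.67 and -0.91.

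Plasminogen itself and the main plasma inhibitor of plasmin did not pass. Plg averaged 5.32 ± 0.22 after SE and 5.17 ± 0.05 under saline in Astro-D2KO mice, and 5.38 ± 0.14 after SE and 5.22 ± 0.08 under saline in control mice (log2, SD, n = 4 each). The differences were 0.15 and 0.16, with limma adjusted p of 0.333 and 0.297. These Plg levels lay below the array medians and were not shown to be above background. Serpinf2, encoding alpha-2-antiplasmin, differed by 0.01 in Astro-D2KO mice and -0.01 in control mice, with limma adjusted p of 0.983 and 0.985. In that group of 3 measured genes none rose and none fell.

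Among plasminogen binding proteins and cofactors, 3 of 7 rose and 2 fell in each genotype. Anxa2, encoding annexin A2, a surface docking protein for plasminogen and tPA, averaged 7.15 ± 0.37 after SE and 5.96 ± 0.67 under saline in Astro-D2KO mice, a rise of 1.18 ± 0.30 (limma adjusted p = 0.00830). The rise of Anxa2 in control mice was 1.06 ± 0.30 (limma adjusted p = 0.0148); leaving out control saline replicate 3 (0.90) or control SE replicate 4 (0.86) ended the call. Itgav, an integrin subunit, rose by 0.68 ± 0.18 in Astro-D2KO mice and by 0.61 ± 0.18 in control mice, and the second call was lost on leaving out saline replicate 3 or 4 or SE replicate 4 of the control mice (0.45 to 0.58). Vtn, encoding vitronectin, a matrix protein that binds uPAR, fell by 0.67 ± 0.13 in Astro-D2KO mice and by 0.91 ± 0.13 in control mice (limma adjusted p of 0.00182 and 0.00011). Its SE arrays lay below the saline arrays in both genotypes.

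Among clearance receptors, which take up complexes of proteases and serpins, 1 of 6 rose in each genotype, 1 fell in Astro-D2KO mice and 2 fell in control mice. Lrp1, the main such receptor gene, averaged 9.31 ± 0.06 after SE and 9.62 ± 0.03 under saline in Astro-D2KO mice, and 9.26 ± 0.07 after SE and 9.64 ± 0.12 under saline in control mice. It fell by 0.31 ± 0.072 and by 0.38 ± 0.072 in these genotypes (limma adjusted p of 0.00518 and 0.00102). Lrpap1, encoding the chaperone of that receptor family, rose by 0.64 ± 0.13 in Astro-D2KO mice and by 0.45 ± 0.13 in control mice; the control call was lost on leaving out saline replicate 3 or 4 or SE replicate 1 or 4 of that genotype (0.35 to 0.44). Sorl1, a sorting receptor gene, stood at -0.25 ± 0.088 in Astro-D2KO mice (limma adjusted p = 0.0548) and fell by 0.29 ± 0.088 in control mice (limma adjusted p = 0.0245). In Astro-D2KO mice Sorl1 passed on leaving out control saline replicate 4, control SE replicate 2 or Astro-D2KO saline replicate 2 (-0.29 to -0.25), and the control call was lost on leaving out saline replicate 1 or 2 or SE replicate 3 or 4 of the control mice (-0.27 to -0.25).

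Of 11 other serpins measured, 1 rose in each genotype, 2 fell in Astro-D2KO mice and 0 fell in control mice. Serpinh1, encoding a collagen chaperone of the endoplasmic reticulum that does not inhibit proteases, rose by 0.36 ± 0.12 in Astro-D2KO mice and by 0.49 ± 0.12 in control mice (limma adjusted p of 0.0368 and 0.00560). Its call in Astro-D2KO mice was lost without saline replicate 1, 2 or 3 or SE replicate 2 or 3 of that genotype (0.31 to 0.37). Serpinb1a and Serpinb9, encoding intracellular inhibitors of leukocyte and lymphocyte proteases, fell in Astro-D2KO mice by 0.40 ± 0.13 and by 0.30 ± 0.10 (limma adjusted p of 0.0354 and 0.0405), against 0.01 and 0.06 in control mice. The difference between genotypes did not pass for either (limma adjusted p = 0.998 each). Mean levels of both genes lay below the array medians and were not shown to be above background. The Serpinb1a call was lost without saline replicate 2, 3 or 4 or SE replicate 2, 3 or 4 of Astro-D2KO mice (-0.41 to -0.30), and the Serpinb9 call without Astro-D2KO saline replicate 1 or 3, Astro-D2KO SE replicate 1, 3 or 4 or control saline replicate 3 (-0.31 to -0.20).

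In the thrombin and tissue factor branch, 2 of 6 genes rose in Astro-D2KO mice and 3 in control mice, and none fell. Thbd, encoding thrombomodulin, the endothelial receptor that turns thrombin towards protein C, averaged 7.19 ± 0.09 after SE and 6.21 ± 0.29 under saline in Astro-D2KO mice, and 7.31 ± 0.08 after SE and 6.36 ± 0.09 under saline in control mice. It rose by 0.99 ± 0.11 and by 0.95 ± 0.11 (limma adjusted p of 8.12e-06 and 1.08e-05). Procr, the endothelial protein C receptor gene, rose by 0.81 ± 0.12 in Astro-D2KO mice and by 0.45 ± 0.12 in control mice (limma adjusted p of 0.000159 and 0.0123). F2, encoding prothrombin, stood at 0.18 ± 0.098 in Astro-D2KO mice (limma adjusted p = 0.223) and rose by 0.38 ± 0.098 in control mice (limma adjusted p = 0.00899). F2 averaged 4.14 after SE and 3.95 under saline in Astro-D2KO mice, and 4.21 after SE and 3.83 under saline in control mice. Those levels lay well below the array medians and were not shown to be above background. The summed level of endothelial markers given above was also higher after SE in each genotype. The part of endothelium in the rises of Thbd and Procr was not tested.

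Of 10 matrix proteases and their inhibitors, 1 rose and 1 fell in each genotype. Prss12, encoding neurotrypsin, a synaptic serine protease, fell by 0.66 ± 0.19 in Astro-D2KO mice and by 0.78 ± 0.19 in control mice (limma adjusted p of 0.0168 and 0.00551); its Astro-D2KO call was lost without Astro-D2KO saline replicate 4 (-0.58) or Astro-D2KO SE replicate 1 (-0.55). Timp3, a metalloprotease inhibitor gene, rose by 0.44 ± 0.14 in Astro-D2KO mice, and stood at 0.36 ± 0.14 in control mice (limma adjusted p of 0.0320 and 0.0718). That Astro-D2KO call of Timp3 was lost without saline replicate 1, 3 or 4 or SE replicate 2, 3 or 4 of the genotype (0.35 to 0.45), and the control difference passed without control SE replicate 3 (0.47) or Astro-D2KO SE replicate 1 (0.36). Mmp3, encoding stromelysin 1, a metalloprotease that plasmin can activate, stood at 0.05 ± 0.14 in Astro-D2KO mice and rose by 0.50 ± 0.14 in control mice. The control call of Mmp3 was lost on leaving out saline replicate 1 (0.44) or SE replicate 3 (0.38) of the control mice. Its means, 4.62 after SE and 4.12 under saline in control mice, lay well below the array medians and were not shown to be above background.

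Among 7 substrates and growth factor precursors, 3 rose in Astro-D2KO mice and 4 in control mice, and none fell. Bdnf, whose precursor protein plasmin can cleave, averaged 8.63 ± 0.11 after SE and 6.61 ± 0.22 under saline in Astro-D2KO mice, and 8.56 ± 0.20 after SE and 6.54 ± 0.18 under saline in control mice. It rose by 2.02 ± 0.12 and by 2.01 ± 0.12 (limma adjusted p of 1.05e-08 and 6.98e-09). Hgf, encoding hepatocyte growth factor, which uPA can activate, rose by 0.48 ± 0.13 in Astro-D2KO mice and by 0.73 ± 0.13 in control mice (limma adjusted p of 0.0129 and 0.000557). Pdgfc, encoding a platelet-derived growth factor that tPA can activate, rose by 0.43 ± 0.10 in Astro-D2KO mice and by 0.36 ± 0.10 in control mice; the control call was lost without control SE replicate 1 (0.30).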

How the data were processed

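Total RNA of mouse hippocampus was extracted with Trizol and hybridised as biotin-labelled cDNA to Affymetrix arrays, per the labels' protocols. The authors deposited 1 value per probe set and array, made with RMA per the submitters' processing notes. The range of these deposited values marked them as log2 (1.7 to 13.79, array medians 5.77 to 5.82); the table does not state the base. Of 41345 probe sets, 23521 had 1 gene symbol, 1814 several and 16010 none. Each of 22180 genes was represented by its highest-mean probe set. Group means were fitted to all 16 arrays with limma 3.58.1 (R 4.3.3) and its default empirical Bayes step. Tests were two-sided and adjusted by Benjamini-Hochberg over all genes in each comparison, with a threshold of 0.05; intervals are not adjusted. The fit was tested on simulated data. Arrays have no read depth, so 4 arrays per group limit the precision.

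The members, lists, tests and motifs were chosen with earlier results of these data known. Named list genes are up to 3 per list with the largest change among those that passed in either SE comparison, plus Plg and Serpinf2. Replicate numbers are shared between groups; the deviations of same-numbered arrays correlated between -0.29 and 0.34, so the numbers were not taken to pair mice. Alternatives covered scaling, probe sets, a filter on low values, the spread, array weights, the replicate block and left-out arrays. They were extended to the list genes after seeing the data.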

Additional observations from a re-analysis of the deposited data

Results flagged for a closer look

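In 22 groups of 4 arrays, covering the measured members and Dio2 but leaving out Serpinb2 after SE, which was chosen on those values, an array was singled out when its gap to the next array exceeded Dixon's 95% critical share of the group's range, which chance alone does in about 1 group of 20. There were 3 such values. Dio2 stood at 8.91 in Astro-D2KO SE replicate 1, above 7.03 to 7.17 in the others. Plaur stood at 7.88 in control SE replicate 4, above 7.45 to 7.49 in the other control SE arrays. Serpini1 stood at 9.26 in Astro-D2KO SE replicate 3, below 9.61 to 9.64 in the others.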

How the results depend on the processing

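The rises of Plat, Plau and Plaur passed in both genotypes under every alternative that could be run, with log2 rises of 0.84 to 1.33 for Plat, 0.26 to 0.74 for Plau and 1.15 to 1.48 for Plaur; the highest adjusted p was 0.0483, for Plau in control mice. Plau and Serpinb2 lie below the filter on low values. The cause of the changes below was not tested. With the SE arrays of highest Dio2 among Astro-D2KO mice (replicate 1) and lowest Dio2 among control mice (replicate 4) both left out, Astro-D2KO and control mice differed after SE in 5 genes, Dio2, Serpinb2, Pcna, Cip2a and Fa2h, named after their values were seen, and in 1 gene under saline (Dio2) and 1 in the SE response (Serpinb2), against 0 with all arrays. The arrays were left out for their Dio2 values and Serpinb2 was chosen for its SE spread, so the calls of these genes are no test. With the spread from the compared groups alone, 1 gene (Dio2) passed under saline. Leaving out 1 array gave 0 to 2 genes after SE, the 2 (Fa2h and Serpinb2) without control SE replicate 4 and 1 (Dio2) without Astro-D2KO SE replicate 1. List genes that rose in control mice numbered 8 without both arrays, and those that fell in Astro-D2KO mice 3 to 7 without 1 array. Serpini1 differences after SE stayed near 0: -0.03 in control and -0.04 in Astro-D2KO mice with quantile normalisation repeated, -0.01 in Astro-D2KO mice without both arrays, and -0.05 to 0.14 (control) and -0.04 to 0.11 (Astro-D2KO) without 1 array. Plaur between genotypes after SE was 0.02 with array weights, 0.17 without both arrays and -0.10 to 0.07 without 1 array. Under saline the Plaur difference was -0.07 to 0.20 without 1 array. After SE and without both arrays, Astro-D2KO minus control was 0.13 for Plat, 0.15 for Plau and -0.38 for Serpini1. With all arrays these differences were 0.09, 0.14 and -0.23, and none passed in either setting. Genotype dependence of the response was 0.12 for Plaur without both arrays and, without 1 array, -0.24 to 0.03 for Plaur, -0.28 to 0.08 for Plat and -0.12 to 0.09 for Serpini1. Serpinb2 under saline was -0.09 to 0.03 without 1 array. Serpinb1a in control mice was 0 with quantile normalisation repeated and -0.07 to 0.09 without 1 array. Serpinf2 was 0.02 in control mice with arrays centred on their medians, and without 1 array -0.22 to 0.19 (control) and -0.14 to 0.25 (Astro-D2KO). Mmp3 in Astro-D2KO mice was -0.04 to 0.16 without 1 array. Without both arrays, Anxa2 (0.86), Itgav (0.45), Lrpap1 (0.41), Sorl1 (-0.25) and Procr (0.34) did not pass in control mice, nor Serpinb9 (-0.28) and Prss12 (-0.55) in Astro-D2KO mice. With arrays centred, Sorl1 (-0.26) did not pass in control mice, nor Serpinb1a (-0.37) and Serpinb9 (-0.28) in Astro-D2KO mice. With the replicate block, which pairs arrays by number only, no call of Plat, Plau, Plaur or Serpini1 changed, and Serpinh1 (0.36), Serpinb1a (-0.40) and Serpinb9 (-0.30) lost theirs in Astro-D2KO mice.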

Other observations

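Inhibitor genes with large but scattered differences after SE were picked out after their values were seen, and none passed. Timp1, encoding an inhibitor of matrix metalloproteases, averaged 7.01 ± 0.59 after SE and 5.88 ± 1.47 under saline in Astro-D2KO mice, and 6.81 ± 1.01 after SE and 5.56 ± 0.89 under saline in control mice (log2, SD, n = 4 each; limma adjusted p of 0.231 and 0.166). Serpina3n, a serpin of reactive astrocytes, averaged 11.40 ± 0.49 after SE and 10.73 ± 0.70 under saline in Astro-D2KO mice, and 11.06 ± 0.68 after SE and 10.32 ± 0.70 under saline in control mice (limma adjusted p of 0.261 and 0.194). A2m, encoding the broad protease trap alpha-2-macroglobulin, differed by 0.49 ± 0.31 in Astro-D2KO mice and by 0.75 ± 0.31 in control mice (limma adjusted p of 0.317 and 0.0996).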
